A study of Homo sapiens with 6 samples.

Results

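The genes described here encode the coat of caveolae, the small flask-shaped pits of the plasma membrane. They were taken by name from the deposited gene table as CAV1, CAV2, PTRF, SDPR, PRKCDBP and EHD2. Of these 6 genes, 5 have a row among the 22604 genes of the table. PRKCDBP, which encodes cavin-3, was not analysed here. RNA-seq was performed in SKNMC cells, an Ewing sarcoma line that carries the EWS-FLI1 fusion, in 3 groups of 2 libraries each. The first group received lentivirus for V5-tagged full-length NFIB (NFIB WT), the second received V5-tagged NFIB without its C-terminal intrinsically disordered region (NFIB ΔIDR), and the third received the empty vector (EV). All groups keep their own NFIB gene and EWS-FLI1, were selected with puromycin after infection and had no other treatment. The sources do not say whether the infected cells were clones or pools.

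Caveolins are hairpin proteins that insert into the inner face of the membrane and assemble with cholesterol. CAV1 is the caveolin that builds caveolae outside striated muscle, and CAV2 needs CAV1 to leave the Golgi complex. Cavins are cytosolic proteins that form the outer coat. Cavin-1, encoded by PTRF, is required for caveolae to form, cavin-2 (SDPR) helps to shape the membrane, and the ATPase EHD2 holds caveolae at the cell surface. Caveolae are known best from endothelium, fat cells and muscle.

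CAV1 and CAV2 are neighbours on chromosome 7, and their start sites in the table lie 25184 bases apart on the same strand of hg19. The other coat genes lie elsewhere, PTRF on chromosome 17 (40554467 to 40575274), SDPR on chromosome 2 (192699036 to 192711814) and EHD2 on chromosome 19 (48216679 to 48246391), as placed by GENCODE on hg19. The 250 bases before the deposited start site of CAV2 are given to show the NFI half-site found there. They were read from the hg19 genome on the plus strand, at chr7:116139405-116139654. Capitals mark the half-site TGGCA, searched on both strands.
CAV2: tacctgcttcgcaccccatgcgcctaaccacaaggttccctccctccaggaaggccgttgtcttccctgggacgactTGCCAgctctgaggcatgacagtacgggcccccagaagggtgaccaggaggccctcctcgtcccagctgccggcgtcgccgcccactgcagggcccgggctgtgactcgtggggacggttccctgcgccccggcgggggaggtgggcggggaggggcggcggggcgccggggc
The window of CAV2 held 1 half-site, which begins 173 bases before the start site. Windows of the same length before 20542 genes held the half-site in 38.3% of cases, so the match in CAV2 is a common one. The full NFI palindrome, TTGGC followed after 5 bases by GCCAA (0.0389% of windows), and the repeat GGAAGGAA (2.85% of windows), from the GGAA repeats that EWS-FLI1 binds, were not found in it. The window shows the sequence of 1 coat gene and was picked because it held a half-site. Windows of the other coat genes are not reported here, so no comparison between coat genes is drawn from it.

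The libraries held 6664231 to 8465572 counts, and 13501 genes passed the expression filter and were tested with edgeR's quasi-likelihood test in a single fit of all 6 libraries. Levels are TMM-scaled CPM (the counts of a gene relative to its library's scaled total), given with the SD over 2 libraries. The p values were adjusted by Benjamini-Hochberg across all tested genes. In the smallest library 1 CPM stood for 6.67 counts. NFIB RNA was at 969 and 1051 CPM with NFIB WT, 2227 and 2332 with NFIB ΔIDR, and 176 and 145 CPM with EV, so NFIB RNA was above EV with both constructs and highest with NFIB ΔIDR. The 2 NFIB WT libraries differed more from each other than the other pairs did, with an SD of the log2 difference across genes of 0.38 for NFIB WT, 0.28 for NFIB ΔIDR and 0.28 for EV. Of 11 Ewing sarcoma markers in the table, all 11 were above 1 CPM on average.

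CAV1 RNA rose with NFIB WT and was the coat gene that passed the test. It was at 2536 and 1879 CPM with NFIB WT, 1158 and 1137 with NFIB ΔIDR, and 1242 and 1180 CPM with EV. Both NFIB WT libraries lay above all others, and the NFIB ΔIDR libraries lay just below those of EV. CAV1 was 1.82-fold higher with NFIB WT than with EV (2208 ± 465 against 1211 ± 43.5 CPM, SD, n = 2 each), or by 0.87 on the log2 scale (SE 0.12, edgeR's adjusted p = 0.0114). Set directly against NFIB ΔIDR (1148 ± 14.8 CPM), CAV1 in NFIB WT cells was 1.92-fold higher, or by 0.94 on the log2 scale (SE 0.12, adjusted p = 0.00138). With NFIB ΔIDR against EV the log2 fold change was -0.08 (95% interval -0.33 to 0.18, adjusted p = 0.819). In bulk RNA, more cells that express a gene and more of its RNA per cell cannot be told apart.

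**Figure D1:**
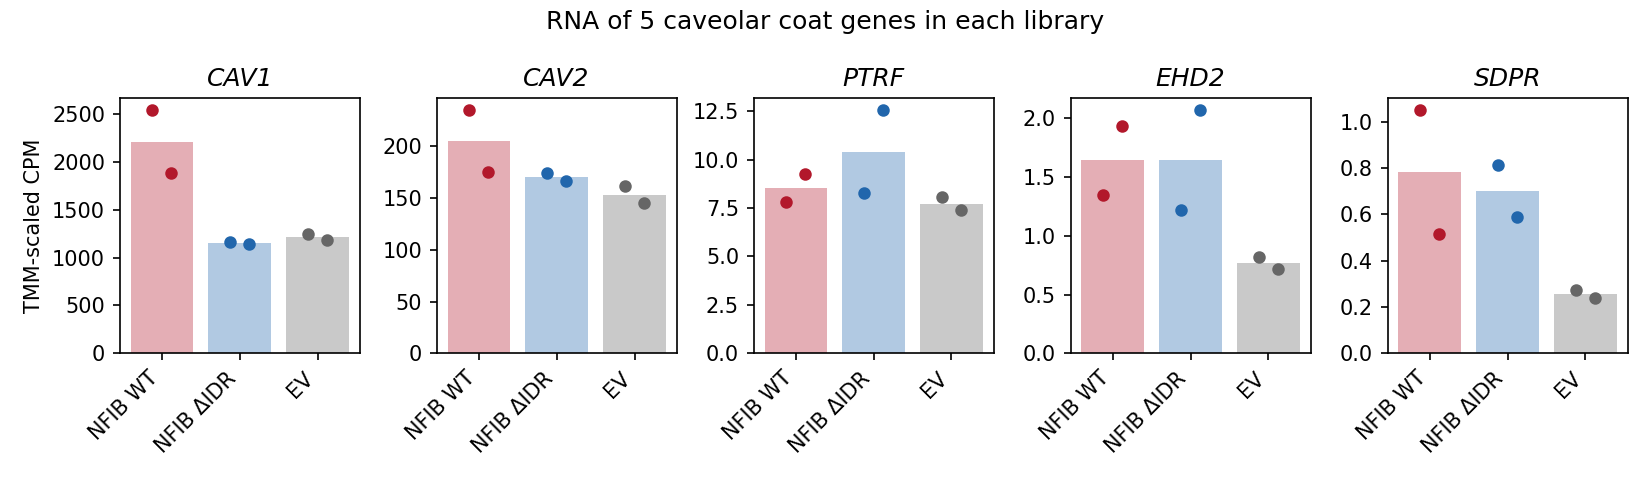
TMM-scaled CPM (vertical axes, each from 0) of 5 caveolar coat genes with NFIB WT, NFIB ΔIDR and EV. Points are the 2 libraries of a group and bars their means. The CAV1 libraries with NFIB WT, at 2536 and 1879 CPM, lie above the other 4, while EHD2 and SDPR stay under 2.1 CPM in all libraries.

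The call of CAV1 against EV was made in a fit that pools the spread of the 3 groups. It was lost in a fit of NFIB WT and EV alone (adjusted p = 0.0932), without NFIB ΔIDR replicate 1 or 2 (0.0766 and 0.0754) and without EV replicate 1 or 2 (0.155 and 0.257). The log2 fold change stayed between 0.83 and 0.91 in these fits. Without NFIB WT replicate 1 it was 0.64 (adjusted p = 6.13e-25) and without replicate 2 it was 1.07 (adjusted p = 8.68e-79), where the remaining NFIB WT library was assumed to vary like the other groups. Between the constructs the call held in the fit of 2 groups and without any 1 library but NFIB ΔIDR replicate 2 (log2 fold change 0.93, adjusted p = 0.0547), and without NFIB ΔIDR replicate 1 the adjusted p was 0.0496.

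CAV2, the partner of CAV1 in caveolin oligomers, did not pass the test in any comparison. Its levels were 235 and 175 CPM with NFIB WT, 174 and 166 with NFIB ΔIDR, and 161 and 145 CPM with EV. The NFIB WT libraries were again the highest, but replicate 2 differed from the higher NFIB ΔIDR library by about 1 CPM. The log2 fold change was 0.42 with NFIB WT against EV (SE 0.13, 95% interval 0.14 to 0.70, adjusted p = 0.207). It was 0.27 with NFIB WT against NFIB ΔIDR (95% interval -0.01 to 0.55, adjusted p = 0.204) and 0.15 with NFIB ΔIDR against EV (95% interval -0.13 to 0.43, adjusted p = 0.643). Without NFIB WT replicate 2 it passed against EV and against NFIB ΔIDR, with log2 fold changes of 0.62 and 0.47 (adjusted p = 2.12e-14 and 1.07e-08). Without NFIB WT replicate 1 these log2 fold changes were 0.19 and 0.045 (adjusted p = 0.157 and 0.755), so the size for CAV2 hung on which NFIB WT library was kept. It also passed against EV when low genes were not filtered out (adjusted p = 0.0052).

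The ratio of CAV1 to CAV2 counts within a library does not depend on scaling between libraries. It was 10.8 and 10.7 with NFIB WT, 6.67 and 6.85 with NFIB ΔIDR, and 7.69 and 8.16 with EV. Thus the ratio was almost equal in the 2 NFIB WT libraries although CAV1 itself differed between them by 0.43 on the log2 scale. The mean ratio was 10.8 ± 0.0448 with NFIB WT against 7.93 ± 0.334 with EV (SD, n = 2 each), 1.36 times as high, and no library of one group overlapped the other. With NFIB ΔIDR it was 6.76 ± 0.128, 0.854 times that of EV. An exact two-sided permutation test of 2 libraries against 2 cannot go below p = 0.333, which each of the 3 comparisons gave.

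**Figure D2:**
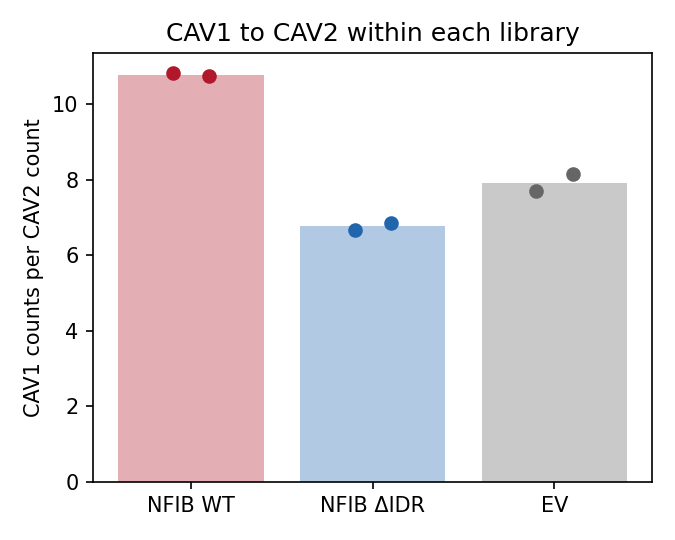
Counts of CAV1 per count of CAV2 (vertical axis) within each library, with NFIB WT, NFIB ΔIDR and EV. Points are libraries and bars their means. The 2 NFIB WT libraries, at 10.8 and 10.7, lie above those of EV, and the NFIB ΔIDR libraries lie lowest.

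The cavins and EHD2 had far less RNA than the caveolins. PTRF, whose protein cavin-1 joins caveolin oligomers into a coat, was at 7.80 and 9.27 CPM with NFIB WT, 8.25 and 12.5 with NFIB ΔIDR, and 8.05 and 7.41 CPM with EV. These ranges overlapped for NFIB WT and EV, and NFIB ΔIDR replicate 2 was the highest library. The log2 fold change of PTRF was 0.15 with NFIB WT against EV (95% interval -0.35 to 0.65, adjusted p = 0.804) and 0.42 with NFIB ΔIDR against EV (95% interval -0.07 to 0.91, adjusted p = 0.406). Without NFIB ΔIDR replicate 2 the value with NFIB ΔIDR was 0.094. With NFIB WT against NFIB ΔIDR it was -0.27 (95% interval -0.75 to 0.22, adjusted p = 0.458). No change of PTRF was detectable beside the higher CAV1 of NFIB WT cells, at an interval that reached 0.65.

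EHD2, the ATPase of the caveolar neck, had few counts, with 9 and 15 in the NFIB WT libraries, 9 and 14 with NFIB ΔIDR, and 6 and 6 with EV. Every library with a construct exceeded both EV libraries. EHD2 passed the expression filter through the construct libraries, so its entry into the test is tied to the groups in which it was higher. The means were 1.64 ± 0.412 CPM for NFIB WT and 1.64 ± 0.600 CPM for NFIB ΔIDR, against 0.768 ± 0.0721 CPM for EV (SD, n = 2 each). The log2 fold changes against EV were 1.10 with NFIB WT (SE 0.48, unadjusted p = 0.0431, adjusted p = 0.356) and 1.07 with NFIB ΔIDR (SE 0.48, unadjusted p = 0.0497, adjusted p = 0.329), and both comparisons use the same EV libraries. Neither passed after adjustment. The study's looser threshold was a fold of at least 1.5 with a p under 0.05, used with DESeq2. With that threshold put on edgeR's unadjusted p, EHD2 counted as higher with each construct. So did 2.13% of all genes with NFIB WT and 3.09% with NFIB ΔIDR. By DESeq2, the study's own tool, EHD2 passed with neither (unadjusted p = 0.184 with NFIB WT and 0.192 with NFIB ΔIDR). That pairing was run here after the data were seen. The constructs were close to each other, with a log2 fold change of 0.03 and a wide 95% interval of -0.89 to 0.95.

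SDPR, which encodes the membrane-shaping cavin-2, was the coat gene with the lowest level and did not pass the filter. It had 7 and 4 counts with NFIB WT, 6 and 4 with NFIB ΔIDR, and 2 and 2 with EV. Summed over libraries and scaled for depth, the ratio to EV was 2.99 with NFIB WT (95% exact counting interval 0.886 to 12.9) and 2.77 with NFIB ΔIDR (0.799 to 12.1). Both intervals include 1 and cover counting error only, so a difference was not detectable at this depth.

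**Figure D3:**
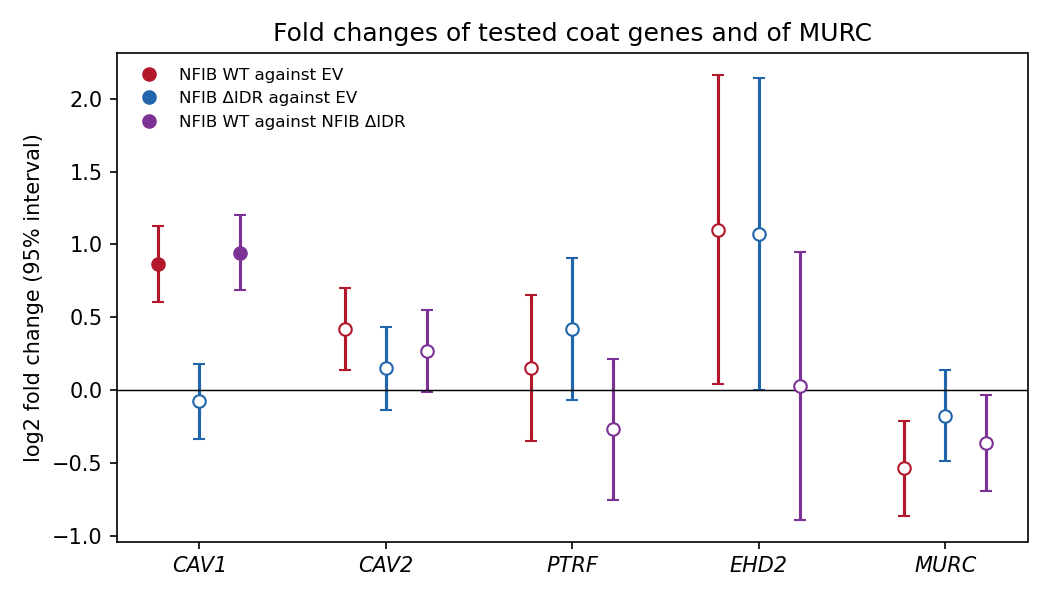
Log2 fold changes (vertical axis) with 95% intervals from edgeR for the 4 coat genes tested and for MURC, in the comparisons NFIB WT against EV, NFIB ΔIDR against EV and NFIB WT against NFIB ΔIDR. Filled points passed at an adjusted p under 0.05. The 2 filled points are those of CAV1 with NFIB WT, at 0.87 and 0.94.

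As a group, 1 of 4 coat genes tested was higher with NFIB WT than with EV and 0 were lower. Of all genes tested 0.615% passed in this comparison, and 0.452% passed as higher. At an unadjusted p under 0.05 were CAV1, CAV2 and EHD2, 3 of the 4, where 13.4% of all genes were, and EHD2 had entered through the groups in which it was high. In NFIB ΔIDR cells 0 of 4 coat genes passed against EV by edgeR and 0 by DESeq2, where 0.652% of all genes did, and 1 (EHD2) had an unadjusted p under 0.05, as did 15.2% of all genes. Between the constructs 1 of 4 was higher in NFIB WT cells, where 10.7% of all genes passed, 5.52% as higher and 5.19% as lower. Over the 4 genes the log2 fold changes had a median of 0.64 for NFIB WT against EV, 0.29 for NFIB ΔIDR against EV and 0.15 between the constructs, and over all genes 0.0041, 0.0013 and -0.00087. These medians depend on EHD2. Without it, a choice made after seeing the data, the medians of CAV1, CAV2 and PTRF were 0.42, 0.15 and 0.27 in the same comparisons, each moved by over 1.5 times, so neither set is read against that of all genes. The comparisons share libraries and are not independent of each other.

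Divided by gene length, CAV1 stood highest and EHD2 and SDPR lay under 1 CPM per kilobase. CAV1 was at 603 CPM per kilobase with NFIB WT, 314 with NFIB ΔIDR and 331 with EV. Its rank among the 22604 genes was 58 with NFIB WT, 116 with NFIB ΔIDR and 111 with EV, and so CAV1 was abundant in EV cells too. CAV2 was at 61.9 CPM per kilobase with NFIB WT, 51.3 with NFIB ΔIDR and 46.3 with EV, and PTRF at 2.35 with NFIB WT, 2.86 with NFIB ΔIDR and 2.13 with EV. EHD2 stood at 0.458 with NFIB WT, 0.458 with NFIB ΔIDR and 0.214 with EV, and SDPR at 0.241 with NFIB WT, 0.216 with NFIB ΔIDR and 0.0788 with EV. The order CAV1, CAV2, PTRF, EHD2, SDPR was the same in all 3 groups. The gaps between CAV1, CAV2 and PTRF exceeded the spread between libraries, whereas EHD2 and SDPR differed by counts too low to rank firmly. CAV1 alone made up 91.2 and 91.0% of the summed CPM of the 5 genes with NFIB WT, 86.3 and 86.3% with NFIB ΔIDR, and 87.9 and 88.5% with EV.

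**Figure D4:**
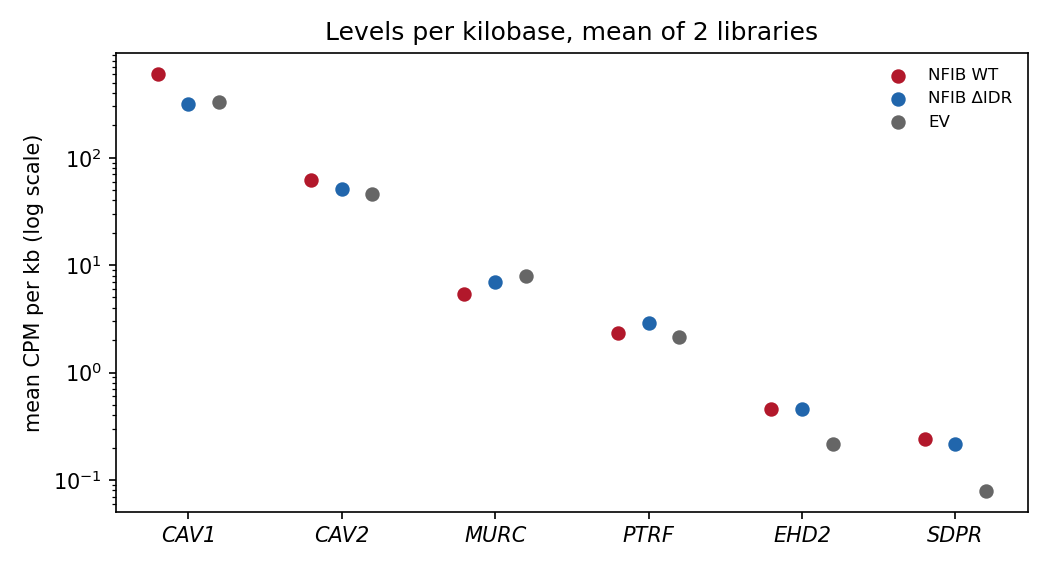
Mean CPM per kilobase of gene length (vertical axis, log scale) of 5 coat genes and of MURC with NFIB WT, NFIB ΔIDR and EV. Each point is the mean of 2 libraries. CAV1 lies at 314 to 603, and PTRF lies at 2.13 to 2.86, below MURC in all 3 groups.

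MURC, which encodes cavin-4, a cavin known from heart and skeletal muscle, had a higher level per length than PTRF. It was at 5.43 CPM per kilobase with NFIB WT, 7.03 with NFIB ΔIDR and 7.94 with EV, and was thus the cavin gene with the highest level measured here. In CPM it was at 14.5 and 19.1 with NFIB WT, 21.1 and 22.4 with NFIB ΔIDR, and 25.4 and 23.8 with EV. All libraries with NFIB WT lay below all others, the reverse of CAV1. The log2 fold change of -0.54 with NFIB WT against EV (SE 0.15, 95% interval -0.86 to -0.21) did not pass (adjusted p = 0.153), nor did that of -0.36 against NFIB ΔIDR (adjusted p = 0.148). CAV3, the muscle caveolin, had 0 and 2 counts with NFIB WT, 1 and 1 with NFIB ΔIDR, and 0 and 0 with EV. The 4 skeletal muscle markers in the table summed to 114 to 155 CPM with NFIB WT, 140 to 142 with NFIB ΔIDR and 122 to 124 with EV, nearly all of it from TTN. MYOD1, a defining factor of muscle cells, had 1 count in NFIB ΔIDR replicate 2 and 0 in the other libraries.

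Among 10 relatives and accessory proteins of caveolae, 8 were tested. Against EV, 0 passed with either construct by edgeR or by DESeq2, and 3 had an unadjusted p under 0.05 with NFIB WT (MURC, EHD4 and ROR1) and 1 with NFIB ΔIDR (EHD3), next to 13.4% and 15.2% of all genes. Between the constructs EHD3, an ATPase related to EHD2, stood at 2.25 and 2.96 CPM in NFIB WT cells, against 0.541 and 1.03 CPM in NFIB ΔIDR cells (log2 fold change 1.74, SE 0.44, adjusted p = 0.0323). EHD3 was the 1 of the 8 that edgeR called here, where 10.7% of all genes passed, and DESeq2 called 0 of the 8. With EV it was at 2.18 and 2.87 CPM, so the NFIB ΔIDR libraries were the low ones, though their log2 fold change of -1.69 against EV did not pass (adjusted p = 0.11). EHD3 had 4 and 7 counts with NFIB ΔIDR, so it passed the filter through the NFIB WT and EV libraries, in which it was higher. PACSIN2, which bends the membrane at caveolae, was at 57.2 to 64.7 CPM over all libraries (log2 fold change 0.01 with NFIB WT against EV, 95% interval -0.20 to 0.22). FLNA, which ties caveolae to actin, was at 515 and 598 CPM with NFIB WT, 494 and 507 with NFIB ΔIDR, and 489 and 529 with EV, and did not pass either.

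Of 22 receptors and signalling proteins known from caveolae, 0 passed against EV with either construct in edgeR's test. By that test 0.615% of all genes passed with NFIB WT and 0.652% with NFIB ΔIDR. DESeq2 called 1 of the 22 with NFIB WT (STOM) and 0 with NFIB ΔIDR. At an unadjusted p under 0.05 there were 8 with NFIB WT, where 13.4% of all genes were, and 6 with NFIB ΔIDR, where 15.2% were. Between the constructs 4 were higher in NFIB WT cells (TGFBR1, EDNRA, SCARB1 and CD59) and 2 were lower (PDGFRA and YES1), of which DESeq2 called 4. Of all genes 10.7% were called in this comparison, 5.52% as higher and 5.19% as lower. TGFBR1, a TGF-beta receptor, and EDNRA, the endothelin A receptor, were higher with log2 fold changes of 0.74 (adjusted p = 0.017) and 0.58 (adjusted p = 0.0186). PDGFRA, a receptor for platelet-derived growth factor, was at 1.5 and 1.03 CPM in NFIB WT cells and so below NFIB ΔIDR cells, at 4.60 and 5.17 CPM (a difference of -1.95 on the log2 scale, SE 0.33, adjusted p = 0.00576). STOM, a membrane scaffold protein, had the smallest p of this list with NFIB WT against EV (log2 fold change 0.71, adjusted p = 0.0767), and CD36, a scavenger receptor, had it with NFIB ΔIDR against EV (log2 fold change 1.87, adjusted p = 0.123). CD36 had 8 and 6 counts with NFIB WT, 11 and 16 with NFIB ΔIDR, and 3 and 5 with EV, so it passed the filter through the NFIB ΔIDR libraries, in which it was high.

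Caveolae are rich in cholesterol and sphingomyelin. Of 12 genes of cholesterol transport and sphingolipid supply that were tested, 0 passed against EV with either construct by edgeR or DESeq2. By edgeR 0.615% of all genes passed with NFIB WT and 0.652% with NFIB ΔIDR. An unadjusted p under 0.05 was held by 3 with NFIB WT (NPC1, SGMS2 and SMPD1) and 2 with NFIB ΔIDR (NPC1 among them), next to 13.4% and 15.2% of all genes. Between the constructs 3 were higher in NFIB WT cells. SGMS2, a sphingomyelin synthase of the plasma membrane, was at 24.0 and 17.4 CPM with NFIB WT, 10.4 and 8.56 with NFIB ΔIDR, and 11.9 and 11.2 CPM with EV. Both NFIB WT libraries lay above the rest, as for CAV1 (log2 fold change against NFIB ΔIDR 1.11, SE 0.19, adjusted p = 0.00576; against EV 0.83, adjusted p = 0.0767). NPC1, which exports cholesterol from lysosomes, was also higher in NFIB WT cells in the test between the constructs (log2 fold change 0.57, SE 0.11, adjusted p = 0.0112). Among 16 genes of the clathrin, dynamin and flotillin coats, 0 passed against EV with either construct by edgeR or DESeq2, next to the same 0.615% and 0.652% of all genes by edgeR. At an unadjusted p under 0.05 there were 0 with NFIB WT and 4 with NFIB ΔIDR (AP2B1, AP2S1, EPN2 and DNM1), next to 13.4% and 15.2% of all genes. The smallest p was that of CLTA with NFIB WT (log2 fold change -0.24, adjusted p = 0.407) and of DNM1, a dynamin, with NFIB ΔIDR (-0.45, adjusted p = 0.2). Between the constructs CLTA, a clathrin light chain, was lower in NFIB WT cells (log2 fold change -0.46, adjusted p = 0.0326), which DESeq2 did not call. CLTA was the 1 of the 16 that edgeR called here, where 10.7% of all genes passed, 5.19% as lower.

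The genes whose pattern over the 6 libraries was closest to that of CAV1 were NPY1R, ATP6V1C2 and CYBRD1. The measure was the root mean square distance of centred log2 CPM among 10594 other genes at a mean of at least 5 CPM, and it was 0.061 for NPY1R, 0.076 for ATP6V1C2 and 0.077 for CYBRD1. NPY1R, a receptor for neuropeptide Y, was at 450 and 339 CPM with NFIB WT, 195 and 197 with NFIB ΔIDR, and 232 and 225 CPM with EV. Both NFIB WT libraries lay above the rest, and NPY1R also stands among the Ewing sarcoma markers. CYBRD1, an iron reductase, was at 65.5 and 51.0 CPM with NFIB WT, 33.1 and 28.0 with NFIB ΔIDR, and 35.5 and 31.3 with EV, and ATP6V1C2, a proton pump subunit, was under 9 CPM. All 3 genes share with CAV1 the higher value in NFIB WT replicate 1 than in replicate 2. They were picked by closeness to CAV1 over these same libraries, so the traits they share with it follow from the choice.

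Markers of endothelial cells, fat cells and smooth muscle were low in all libraries. The 8 endothelial markers summed to 8.50 to 11.8 CPM with NFIB WT, 8.86 to 11 with NFIB ΔIDR and 9.69 to 10.8 with EV, and PECAM1 had at most 2 counts in a library. The 7 adipocyte markers summed to 2.4 to 2.83 CPM with NFIB WT, 1.92 to 4.33 with NFIB ΔIDR and 3.58 to 4.23 with EV, with ADIPOQ at 0 in 5 of 6 libraries. The 7 smooth muscle markers summed to 12 to 13.8 CPM with NFIB WT, 18.5 to 21.4 with NFIB ΔIDR and 9.44 to 12 with EV. Of these, ACTA2 passed with NFIB ΔIDR against EV in edgeR's test (log2 fold change 1.93, adjusted p = 0.0223). The 10 fibroblast markers summed to 613 to 626 CPM with NFIB WT, 429 to 437 with NFIB ΔIDR and 467 to 479 with EV, and FAP and DCN were among them with a call against EV. The 11 Ewing sarcoma markers summed to 3675 to 4046 CPM with NFIB WT, 3260 to 3308 with NFIB ΔIDR and 3375 to 3432 with EV, and LIPI and NPY1R passed against EV. Both sums were highest with NFIB WT, but their members did not move together. Of 11 Ewing sarcoma markers tested, 5 had a log2 fold change above 0 with NFIB WT against EV and 6 below 0, among them GLI1 at -0.78 and NR0B1 at -0.18. CCND1, NPY1R and LIPI were picked as the 3 with the largest CPM gain with NFIB WT over EV. A smaller gain in the rest therefore follows from the choice. The other 8 summed to 1681 to 1864 CPM with NFIB WT, 1821 to 1830 with NFIB ΔIDR and 1824 to 1863 with EV. Of 9 fibroblast markers tested, 6 were above 0 and 3 below 0, which were PDGFRA at -0.94, COL1A1 at -0.49 and THY1 at -0.10. The part of either list in the difference of CAV1 was not tested.

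The genes around CAV1 were examined by position after the values of CAV1 were known, from 3 genes before CAV2 to 3 genes after CAV1 in the table. TES, 314.3 kb before the CAV1 start, had a log2 fold change of 0.42 with NFIB WT against EV (95% interval 0.13 to 0.70, adjusted p = 0.207), a value like that of CAV2. MET, a receptor tyrosine kinase 147.6 kb after it, had -0.25 (adjusted p = 0.396) and CAPZA2, a subunit of actin capping protein 337.7 kb after it, had 0.12 (adjusted p = 0.589). With NFIB WT against EV, CAV1 was the gene that passed among the 7 of these 8 genes that were tested. With NFIB ΔIDR, TFEC, a transcription factor gene 494.0 kb before CAV1, was higher than with EV at 40.5 and 39.3 CPM against 22.2 and 18.5 CPM (a log2 difference of 0.97, SE 0.14, adjusted p = 0.0134). LOC102724434, 238.1 kb before CAV1, was at 2.4 and 2.96 CPM in NFIB WT cells, against 7.58 and 7.97 CPM in NFIB ΔIDR cells, next to 4.5 and 3.70 CPM with EV, and was lower with NFIB WT in the test between the constructs (log2 fold change -1.52, SE 0.24, adjusted p = 0.00435). In edgeR's test the log2 fold change of TFEC was -1.16 between the constructs (adjusted p = 0.00138) and -0.18 with NFIB WT against EV (adjusted p = 0.62). Both genes thus ran in the opposite direction to CAV1 between the constructs. Against EV, however, TFEC passed with NFIB ΔIDR, whereas CAV1 passed with NFIB WT.

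**Figure D5:**
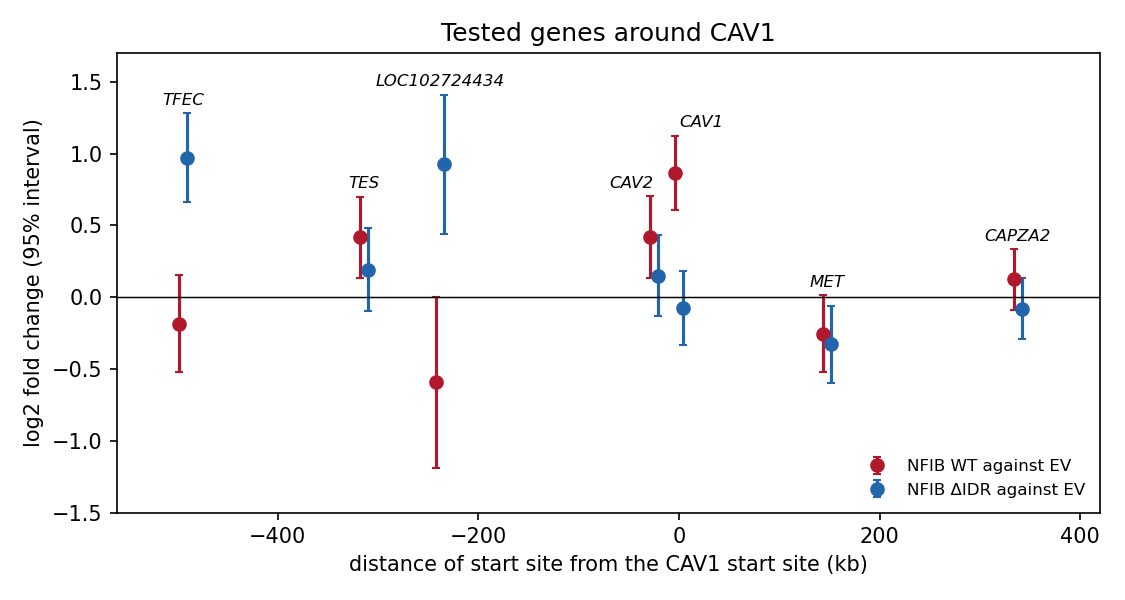
Log2 fold change with 95% interval (vertical axis) of the 7 tested genes around CAV1 against the distance of their start sites from that of CAV1 (horizontal axis, kb), for NFIB WT against EV and NFIB ΔIDR against EV, drawn slightly apart. CAV1 with NFIB WT is at 0.87, and TFEC with NFIB ΔIDR is at 0.97 on the left.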

How the data were processed

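RNA-seq was done on 6 SKNMC libraries (2 per group) made from total RNA with the CORALL kit. According to the submitters' notes, the authors processed reads with CASAVA 2.19, aligned them to hg19 with STAR 2.4.0h and counted fragments per RefSeq gene with featureCounts. The deposited values are raw counts without normalization, and gene lengths (in bases) were deposited beside them. Whether counting used strand, multi-mapping reads or molecular identifiers was not given in the sources used here. Deposited coordinates span 2000 bases around each start site, and no gene with a total of 0 is listed.

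Genes were kept by filterByExpr at a minimum count of 10 and a minimum total of 15. Then edgeR 4.0.16 (R 4.3.3) ran its quasi-likelihood test on TMM-scaled libraries, all 6 in one fit, giving 3 contrasts with Benjamini-Hochberg adjustment over 13501 genes. The study names DESeq2 with a fold of 1.5, and DESeq2 1.42.0 was run as an alternative. Per-group means rest on 2 libraries each. The study describes its RNA-seq experiments as done in biological duplicate. In edgeR's test the variability of each gene was estimated from its own replicates and from the other genes together. The other genes entered with a weight of 7.78 prior degrees of freedom. A p value of 1 gene therefore does not reflect its own replicates alone. For CAV1 the replicates differed by 0.43 on the log2 scale with NFIB WT, 0.03 with NFIB ΔIDR and 0.07 with EV. The common biological coefficient of variation was 0.0776. Intervals are at 95%, and counting intervals cover counting error only. Library totals of 6664231 to 8465572 counts limit what can be seen for genes near 1 CPM.

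Coat genes and gene lists were chosen with earlier results of these data known. Genes around CAV1, PACSIN2, FLNA, CAV3, single markers and further list members were named after their values were seen. The other named genes were the coat genes, NFIB, up to 3 genes with the smallest p past the threshold per list and contrast (the gene with the smallest p where none passed), and the 3 genes nearest to each called coat gene, with log2 CPM at a prior count of 2. PTRF and SDPR were matched to GENCODE under the current symbols CAVIN1 and CAVIN2. Sequence was read from the hg19 genome. Some named items are not reported here. Scripts were tested on simulated data. Python 3.11.15 and matplotlib 3.10.9 made the figures. Other settings tried were scaling factors, filters, fits of 2 groups, a replicate block, robust estimation, thresholds and leaving out each library.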

Additional observations from a re-analysis of the deposited data

How the results depend on the processing

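Under the other scalings, DESeq2, the stricter filter, robust estimation and the replicate block, the number of coat genes called was 1 with NFIB WT against EV, 0 with NFIB ΔIDR against EV and 1 between the constructs, as before. With NFIB WT against EV it was 2 without a filter (CAV2 added), 2 at a fold of at least 1.5 with unadjusted p (EHD2 added) and 0 in the fit of 2 groups. At that looser threshold it was 1 with NFIB ΔIDR against EV. Leaving out each library gave 0 to 2 with NFIB WT against EV, 0 with NFIB ΔIDR against EV and 0 to 2 between the constructs. DESeq2 with the fold and unadjusted p, the pairing named in the study but run here after seeing the data, gave 1, 0 and 1. The log2 fold change of CAV1 with NFIB WT against EV stayed between 0.64 and 1.07 over all 15 alternatives, with adjusted p of 8.68e-79 to 0.257. Between the constructs the log2 fold change of PTRF ran from -0.55 to 0.057 when a library was left out, and turned positive without NFIB ΔIDR replicate 2. That of EHD2 ran from -0.31 to 0.44 and turned negative without NFIB WT replicate 2 (-0.26) and without NFIB ΔIDR replicate 1 (-0.31), and the cause was not tested.

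The number of all genes called moved more. With NFIB WT against EV it was 83, against 541 without a filter, 13 in the fit of 2 groups and 9 to 3051 when a library was left out. With NFIB ΔIDR against EV it was 88, against 550, 1883 and 4 to 1853. Between the constructs it was 1446, against 2280, 680 and 109 to 4405, and 725 with DESeq2. With the fold and unadjusted p the counts were 524, 644 and 1348 in edgeR and 251, 301 and 935 in DESeq2, and at an adjusted p under 0.1 they were 229, 276 and 2354. With the replicate block they were 188 with NFIB WT against EV, 241 with NFIB ΔIDR against EV and 2092 between the constructs. The replicate numbers are not said to mark a shared day, and the differences between replicates 1 and 2 correlated across genes by 0.054, 0.15 and 0.016 between groups, so the numbers were not taken as pairs. The block changed no call of a coat gene. Genes near 1 CPM, such as EHD2 and SDPR, are limited by depth.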
